A study of Mus musculus with 6 samples.

Results

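Mouse MLL-AF10 leukemia cells under vehicle were profiled on 3 whole-transcript arrays, and the gene expression of these cells at baseline is described here. The vehicle arrays were all the samples labelled vehicle, 3 of the 6 arrays of the series, and the other 3 held cells given 0.5 µM of an IKK inhibitor. Both groups were the MLL-AF10 line grown in RPMI with 20% fetal bovine serum and 20% WEHI conditioned medium. The labels named neither the vehicle nor the duration of treatment, and how the line was made is not given in the sources used here. Nothing stated whether the 3 samples came from separate cultures, so the spread between them may be technical. Each gene was represented by 1 probe set, the one of highest mean over the vehicle arrays, which left 19938 genes with a single symbol.

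MLL-AF10 joins the amino-terminal part of the histone methyltransferase MLL (Kmt2a) to the carboxy-terminal part of AF10 (Mllt10), a partner of the histone H3 methyltransferase Dot1l. Fusions of this class are known to keep the late HOXA genes and Meis1 switched on in blood cell progenitors, which then renew themselves at a stage close to the granulocyte-monocyte progenitor. Medium conditioned by WEHI cells is commonly used as a source of interleukin-3 (IL-3), a cytokine on which such progenitor cultures often depend.

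The values were intensities, that is, the brightness of a probe set on a linear scale. Medians over all 35512 probe sets were 120, 115 and 114 on vehicle arrays 1, 2 and 3, and means were 445, 447 and 452. Because olfactory and vomeronasal receptor genes are largely silent outside sensory neurons, their 1180 genes were taken as a reference for background. A gene was counted as above the reference where it exceeded the 95th percentile of these receptors on each of the 3 arrays, which stood at 124, 112 and 113. Of the 18758 genes outside the receptors, 11299 (60.2%) were above the reference on all 3 arrays, 831 on 1 or 2 of them and 6628 on none. This is a description of brightness and not a test of expression, and with keratin and beta defensin genes as the reference the count was 7477 (39.9%). Probe sets bind their targets unequally, so a rank orders probe set brightness and not the abundance of transcripts. The number of arrays limits the precision, and with a single group no test was made.

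Among probe sets with 1 gene symbol, the brightest belonged to housekeeping genes and, among them, to myeloid granule genes. Actb, cytoskeletal beta actin, ranked 1 at 6938, 6966 and 6859.8 on arrays 1, 2 and 3, a mean of 6921 ± 55.2 (SD, n = 3), and values and means are given in this form throughout. Eef1a1, the translation elongation factor, followed with 6246, 6252 and 6332, a mean of 6276 ± 47.7. Rn7sk, the small nuclear RNA that holds back the elongation kinase P-TEFb, was at 6102, 6344 and 6238. Its other probe set was dimmer at 3518, 3820 and 4428, and with its probe sets averaged the mean was 5075. Rn7sk and Rpph1, the RNA of ribonuclease P at 4833 ± 203, were the 2 of the 30 brightest genes that do not code for protein.

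Protein synthesis and folding supplied Pabpc1, Rps6, Rpl10, Rplp1, Rps2, Hspa8 and Calr, with means between 4849 and 5298. Chromatin and cytoskeleton supplied the histone H4 gene H4c4 (mean 5849.8), Tubb5 (4965) and Arpc1b (5283), a subunit of the Arp2/3 complex that nucleates branched actin. Glycolysis was represented by Aldoa (5137) and Ldha (4947), metal handling by the ferritin chains Fth1 (4977) and Ftl1 (4940.4) and the metallothionein Mt2 (5229), and redox control by Txn1 (4908). Psmb5, a catalytic subunit of the proteasome, and B2m, the light chain of class I molecules, had means of 5415 and 5713.

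Genes of blood cells filled much of what was left. Srgn, the proteoglycan core of myeloid granules, read 5476, 5517 and 5872. Ctsg, Elane and Lcn2, granule proteins described below, ranked 23, 26 and 28. Thbs1, the secreted thrombospondin that binds CD47, read 5342, 5444 and 5563. Ly6e and Ly6a2, of the Ly6 family of surface proteins, had means of 4901 and 5378, and Ly6 genes are so alike in sequence that their probe sets may share signal. Baiap2l1 ranked 3 at 6256, but its 3 probe sets disagreed, with means of 6256, 4467 and 46.0, so its rank rests on the choice of probe set. The arrays agreed closely on these genes: of the 30, Hspa8, a constitutive chaperone, varied most relative to its mean, at 5053, 5222 and 5521. With the probe sets of a gene averaged, 26 of the 30 stayed among the brightest 30. Most of the 30 have a single probe set, whose level averaging cannot change.

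Granulocyte-monocyte progenitor genes were the brightest of the cell type lists by median. The lists were chosen with earlier results of these data known, so this order may partly reflect that choice. The progenitor list also includes Calr, grouped above with protein folding. Of 20 measured, 19 were above the reference on all 3 arrays, beside 60.2% of all genes outside the receptors. The median of the list was 2257 against 179 for all genes outside the receptors, and 15 lay in the brightest 10% of genes. These samples are bulk RNA, so a low level can mean few cells of a type or little RNA in each, which cannot be told apart. Ctsg, cathepsin G, a serine protease of primary granules, read 4824, 4838 and 5091. Elane, neutrophil elastase, read 4877, 4779.7 and 5015, and its chromosomal neighbour Prtn3, proteinase 3, read 3659.6, 3644 and 3733. On each array all 3 proteases were far above the reference, and their SDs over the arrays were 150.3, 118 and 47.5.

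Mpo, myeloperoxidase, the peroxidase of the same granules, was picked out after its values were seen, since it ranked 3839 at 726, 771 and 788. Ms4a3, a membrane protein of dividing granulocyte-monocyte progenitors, read 1437, 1479 and 1510.1. Igsf6 and Ap3s1, an immunoglobulin superfamily receptor and a subunit of the AP-3 complex that sorts cargo to lysosome-like granules, read 4129, 4152 and 4389.7, and 3858, 3938 and 3919. The transcription factors of the stage were present too. Myb, which keeps progenitors dividing, had a mean of 3305 ± 29.5, Gfi1, a repressor that favours granulocytes, 1311 ± 43.5, and Cebpa, needed to form the progenitor itself, 577 ± 35.5. Nkg7, a granule membrane protein shared with killer lymphocytes, was the dimmest member at 113, 112 and 117, above the reference on array 3 alone.

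The promoters of 4 granule genes are shown because the heptamer GAGGAAG, a form of the site bound by the myeloid factor PU.1, occurs in 9 of the 18 promoters of this list that could be matched, against 13.3% of 13993 promoters of protein-coding genes. Each sequence runs from 250 bases before to 50 bases after the start that RefSeq lists first (GRCm38.p6). Capitals mark GAGGAAG on the strand of the gene and, in Ctsg, also TTTATA, the reverse complement of TATAAA.

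Ctsg, chr14:56102525-56102824, minus strand: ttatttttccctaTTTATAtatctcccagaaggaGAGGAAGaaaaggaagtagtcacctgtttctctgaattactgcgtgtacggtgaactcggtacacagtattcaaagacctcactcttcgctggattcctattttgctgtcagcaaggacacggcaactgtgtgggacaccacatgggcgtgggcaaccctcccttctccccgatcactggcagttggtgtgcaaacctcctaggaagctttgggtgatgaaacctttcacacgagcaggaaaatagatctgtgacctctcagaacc

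Elane, chr10:79886062-79886361, plus strand: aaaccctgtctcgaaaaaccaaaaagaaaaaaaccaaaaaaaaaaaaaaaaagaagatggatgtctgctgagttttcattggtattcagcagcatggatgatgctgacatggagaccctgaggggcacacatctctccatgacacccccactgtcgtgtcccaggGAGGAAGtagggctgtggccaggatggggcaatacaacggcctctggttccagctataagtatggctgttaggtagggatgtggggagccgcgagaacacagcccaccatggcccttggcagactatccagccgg

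Prtn3, chr10:79879417-79879716, plus strand: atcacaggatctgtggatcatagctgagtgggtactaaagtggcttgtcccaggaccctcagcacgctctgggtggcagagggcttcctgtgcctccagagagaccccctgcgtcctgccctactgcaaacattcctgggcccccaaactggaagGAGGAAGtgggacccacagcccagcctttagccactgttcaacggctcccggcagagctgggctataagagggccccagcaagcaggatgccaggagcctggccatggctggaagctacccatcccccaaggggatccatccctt

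Mpo, chr11:87793534-87793833, plus strand: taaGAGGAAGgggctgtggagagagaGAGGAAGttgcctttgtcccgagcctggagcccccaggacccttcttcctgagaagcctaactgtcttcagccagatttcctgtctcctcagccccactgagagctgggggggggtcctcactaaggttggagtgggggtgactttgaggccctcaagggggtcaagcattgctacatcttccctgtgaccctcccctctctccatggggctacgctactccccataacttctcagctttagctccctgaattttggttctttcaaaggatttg

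The heptamer begins 216 bases before the start in Ctsg, 85 in Elane and 95 in Prtn3, and in Mpo it begins 247 and 224 bases before it. In Elane and Prtn3 it thus lies at a similar distance from the start. A match of letters is a description and not a bound site. The megakaryocyte list, whose genes were mostly dim here, held the heptamer in 5 of 8 promoters, so its share did not follow brightness between these lists.

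Genes of neutrophil maturation ranged widely, from the brightest 10% down to below the reference. Of 19 measured, 15 (78.9%) were above the reference on all 3 arrays, beside 60.2% of all genes outside the receptors. The list median was 283. Lcn2, the iron-siderophore binding lipocalin of secondary granules, was at 4811, 4766 and 5025, a mean of 4868 ± 139. Ngp, the neutrophilic granule protein, was at 1382, 1453 and 1486, and S100a8, a subunit of the calcium-binding calprotectin of neutrophil cytosol, at 1322, 1396 and 1293. Cebpe, the transcription factor of secondary granule genes, read 1079, 1052 and 1082. Ly6g, the surface antigen used to mark mouse neutrophils, read 950.0, 883 and 885, Chil3, a chitinase-like protein, 764, 766 and 800.1, and S100a9, the partner of S100a8, 638, 654 and 694. All of these were well above the reference on every array.

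Other members of the same granules were dim. Ltf, lactoferrin, read 119, 135 and 136, below the reference of array 1 and above that of arrays 2 and 3. Camp, the cathelicidin precursor, had a mean of 156 ± 11.2. Mmp8, the neutrophil collagenase, read 41.9, 42.6 and 37.8, and Retnlg, a resistin-like protein of mature neutrophils, 64.4, 70.8 and 54.5, below the reference on each array. The chemokine receptor Cxcr2, which releases mature neutrophils from marrow, straddled it at 115, 127 and 110.3, and Mmp9, gelatinase B of tertiary granules, had one of the larger spreads of the list at 217, 254 and 238. Thus Lcn2, Ngp and Cebpe were bright while Mmp8 and Retnlg stayed below the reference in the same 3 samples.

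The Lcn2 promoter (GRCm38.p6) is shown because TTGCNNAA, a form of the site of C/EBP factors, occurs in 9 of 17 matched promoters of the neutrophil list, against 9.37% of all matched promoters. Capitals mark TTGCTCAA, which begins 216 bases before the start, and CTTCCTC, the reverse complement of GAGGAAG, which begins 21 bases before it. The 9 genes include dim ones (Ltf, Mmp8 and Retnlg) as well as bright ones (Lcn2, Ngp and S100a9).

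Lcn2, chr2:32387690-32387989, minus strand: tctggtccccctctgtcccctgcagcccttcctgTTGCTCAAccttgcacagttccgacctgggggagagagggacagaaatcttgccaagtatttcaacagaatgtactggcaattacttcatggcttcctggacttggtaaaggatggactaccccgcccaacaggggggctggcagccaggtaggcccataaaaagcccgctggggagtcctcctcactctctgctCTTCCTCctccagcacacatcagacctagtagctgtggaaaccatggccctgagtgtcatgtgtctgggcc

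**Figure D1:**
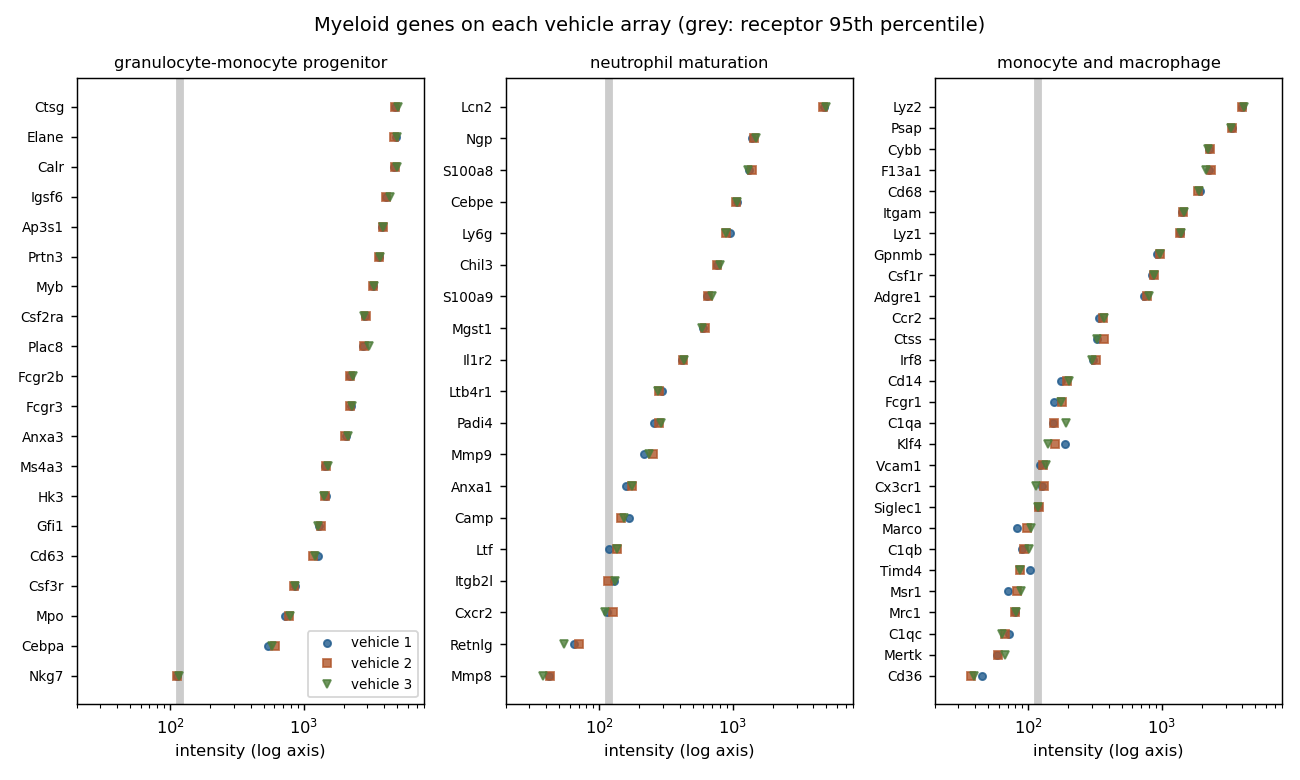
Intensity (log axis) of each measured gene of the granulocyte-monocyte progenitor, neutrophil maturation, and monocyte and macrophage lists on vehicle arrays 1, 2 and 3 (symbols), ordered by mean; the grey band spans the receptor 95th percentile of the 3 arrays. The 3 symbols of a gene nearly coincide for bright genes such as Ctsg and Lyz2 and separate more for dim ones such as Retnlg and Cd36.

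Monocyte and macrophage genes ranged from very bright to below the reference. Of 28 measured, 18 (64.3%) were above the reference on all 3 arrays and 8 on none, with a median of 180. This is near the 60.2% and the median of 179 of all genes outside the receptors. Lyz2, the lysozyme of myeloid cells, read 4005, 3986 and 4146, and its near-identical copy Lyz1 may share its signal. Psap, the precursor of the saposins that aid lysosomal lipid breakdown, read 3327, 3373 and 3323, and Cybb, the catalytic subunit of the phagocyte oxidase, 2236, 2308 and 2229. F13a1, a transglutaminase of monocytes, and Cd68, a lysosomal glycoprotein of macrophages, had means of 2240.4 ± 95.8 and 1889.9 ± 25.8.

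The receptor for the macrophage growth factor, Csf1r, read 839, 877 and 869, and Adgre1, the F4/80 antigen, 738, 777 and 798. Itgam (CD11b) had a mean of 1446 ± 22.1. Irf8, which directs monocyte and dendritic fate, read 303, 321 and 301, and Klf4, a factor of inflammatory monocytes, 188, 157 and 141. Klf4 had the largest SD of log2 in the list and was highest on array 1. The chemokine receptor Ccr2 had a mean of 357 ± 16.8 and Cd14, the co-receptor for bacterial lipopolysaccharide, 191 ± 14.6. Gpnmb, a glycoprotein of lysosome-rich macrophages, had a mean of 952 ± 30.1. The dimmest members were 2 uptake receptors: the scavenger receptor Cd36 read 45.3, 37.1 and 39.0 and the apoptotic cell receptor Mertk 58.0, 59.4 and 67.2. C1qa, a chain of complement C1q, was above the reference at 152, 157 and 193. The other C1q chains of the list, C1qb and C1qc, had means of 94.6 and 67.0 and were above it on no array. Vcam1 and Siglec1, adhesion molecules of resident macrophages, straddled the reference with means of 129.6 and 119.

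Stem cell genes were mostly at or below the reference. Of 18 measured genes of the stem and multipotent progenitor list, 6 were above it on all 3 arrays, 3 on 1 or 2 arrays and 9 on none, with a median of 98.6. Of all genes outside the receptors, 60.2% were above it on all 3 arrays. The 6 became 4 at the 99th percentile of the receptors and 2 with keratins and defensins as reference. Over all genes outside the receptors those settings gave 46.8% and 39.9%. Cd48, which is gained as stem cells turn into progenitors, was the brightest at 1100.3, 1249.8 and 1195. Kit, the stem cell factor receptor, read 344, 357 and 372, and Cd34, the sialomucin of early progenitors, 227, 239 and 256. Mllt3, an MLL partner gene that also sustains human stem cells, had a mean of 257 ± 8.58, Fgd5 of 177 ± 3.66 and Gata2 of 153 ± 12.5.

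Flt3, the receptor of multipotent and lymphoid-biased progenitors, read 80.0, 75.6 and 71.8 and was named after its values were seen. The stem cell regulators Mecom and Hlf had means of 80.8 ± 9.96 and 67.1 ± 2.79, and the surface marker Slamf1 (CD150) of 57.3 ± 7.51. Myct1 was the dimmest at 33.5, 35.9 and 31.1. None of these 5 exceeded the reference on any array. Procr, Ctnnal1 and Tal1 straddled it, with means of 105, 119.6 and 123.

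Markers of other lineages gave few bright genes. Over the 3 myeloid lists (granulocyte-monocyte progenitor, neutrophil, and monocyte and macrophage), 52 of 67 measured genes (77.6%) were above the reference, the median was 762, and 25 lay in the brightest 10% of genes. The medians of these 3 lists, in that order, were 2257, 283 and 180. Over the 7 lists of other cells, 31 of 106 (29.2%) were above it, the median was 93.4, and none lay in the brightest 10%. The second count moved with the reference, to 54 at the 90th percentile, 12 at the 99th and 5 with keratins and defensins, while the myeloid count moved to 57, 44 and 42. Over all genes outside the receptors the 95th percentile gave 60.2%, and those settings gave 70.1%, 46.8% and 39.9%. All of these lists were chosen with earlier results of these data known.

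In the T and NK cell list 5 of 18 were above the reference. Prf1, the pore-forming perforin, read 225, 180.4 and 221 and Cd3e, a chain of the T cell receptor complex, 218, 204 and 186, whereas Il2rb and Ncr1 had means of 52.2 and 48.3. Cd3g, another chain of that complex, was at 61.7, 54.1 and 46.1, below the reference on every array. In the B cell list 4 of 16 were above: Cd79b (mean 222), Ighm (193), the surrogate light chain gene Igll1 (191) and Tnfrsf13c (171), and the B cell antigen Ms4a1 (CD20) read 22.6, 24.6 and 21.2. Pax5, the factor that fixes B cell identity, straddled the reference at a mean of 129.7, and Ebf1, which acts before it, was below it at 41.9. Among defining genes of these lineages, Cd3e, Cd79b and Ighm were thus above the reference on all 3 arrays, and Cd3g, Ms4a1 and Ebf1 on none. For Ighm this rests on the choice among its 3 probe sets, whose average was 95.4, lower than the reference of each array. With probe sets averaged, the B cell count was 3 in place of 4.

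In the erythroid list 3 of 11 were above the reference, or 5 without array 1, and the globin genes were not analysed here. The brightest were Ermap (171) and the erythropoietin receptor Epor (166). The erythroid factors Gata1 and Klf1 straddled it with means of 108 and 114, and Rhag, a red cell membrane protein, was at 30.1. In the megakaryocyte list 3 of 10 were above, Gp9 (232), Treml1 (229.6) and the platelet tubulin Tubb1 (131), while the platelet chemokine Pf4 read 72.2, 73.3 and 68.6. In the mast cell, basophil and eosinophil list 3 of 16 were above: Siglecf at 342, 382 and 351, Mitf with a mean of 279 and the histidine decarboxylase Hdc with 219. The 2 probe sets of Mitf differed, and their average was 144. The mast cell protease Mcpt1 had a mean of 24.4, and the eosinophil receptor chain Il5ra of 39.1.

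In the dendritic cell list 6 of 17 were above the reference. Tcf4, the factor of plasmacytoid dendritic cells that many progenitors also use, read 554, 588 and 598, Cd74, the class II invariant chain, 500.1, 498 and 555, and Bst2, an interferon-induced membrane protein, 355, 365 and 415. The class II chain H2-Aa read 72.3, 47.4 and 69.9 and Clec9a, a receptor of cross-presenting dendritic cells, 48.5, 43.5 and 48.3, below the reference. In the stromal, endothelial and epithelial list 7 of 18 were above, led by smooth muscle actin Acta2 at 677, 676 and 718 and collagen Col1a1 at 289, 245 and 228. Lum and Dcn, proteoglycans of connective tissue, had means of 27.1 and 57.8. Actins are alike in sequence, and the part of this in the Acta2 value was not tested.

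**Figure D2:**
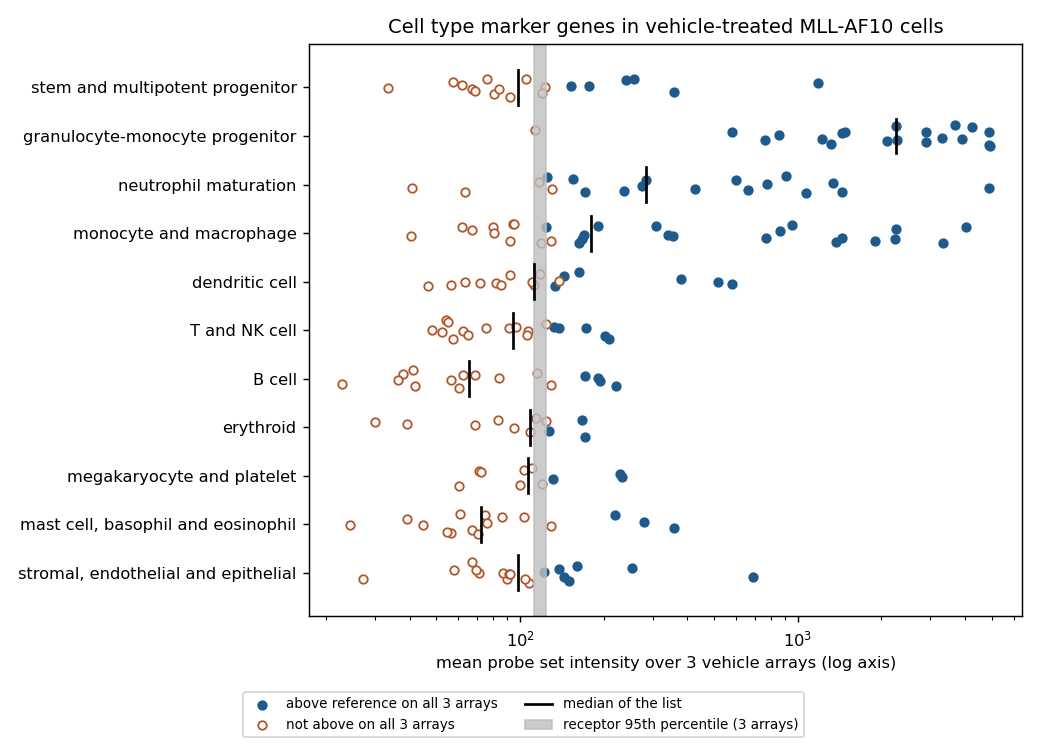
Mean intensity over the 3 vehicle arrays (log axis) of every measured gene of 11 cell type lists; filled points were above the receptor reference on all 3 arrays, open points were not, black bars are list medians and the grey band spans the reference of the 3 arrays. Nearly all granulocyte-monocyte progenitor genes lie right of the band (19 of 20), while most genes of the 7 non-myeloid lists at the bottom lie in or left of it (31 of 106 were above on all 3 arrays).

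HOX genes, the homeobox factors that MLL fusions are known to keep active, had their highest means at Hoxa9, Hoxa10 and Hoxb3. Of 37 HOX genes measured, 17 (45.9%) were above the reference on all 3 arrays, beside 60.2% of all genes outside the receptors. The Hoxa cluster had 9 of 10, with a median of 387, the Hoxb cluster 7 of 9, with a median of 167, the Hoxd cluster 1 of 9, with a median of 92.8, and the Hoxc cluster 0 of 9, with a median of 68.3. The total was 8 at the 99th percentile and 7 with keratins and defensins as reference, so the count of HOX genes above the reference depends on which one is used. The share of all genes outside the receptors also fell at these settings, to 46.8% and 39.9%.

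Hoxa9, the member best known to transform myeloid progenitors, read 1903, 1914 and 1989. Hoxa10 read 1206, 1206 and 1248 and Hoxa7 803, 822 and 807. Hoxa6, Hoxa5 and Hoxa4 followed with means of 483 ± 27.0, 425 ± 14.6 and 348 ± 32.4. Hoxa3 had a mean of 206 ± 5.57, and Hoxa2 straddled the reference at 111, 119 and 132. From Hoxa2 to Hoxa9 the probe sets were brighter with each paralog number, and the ranges of neighbouring genes over the 3 arrays did not overlap. Hoxa11 and Hoxa13, beyond Hoxa10, had means of 163 ± 7.54 and 151 ± 20.4.

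Hoxb3 was the only Hoxb gene with a mean over 500, at 866, 912 and 933. Hoxb1 (263), Hoxb13 (197), Hoxb2 (173), Hoxb9 (167), Hoxb4 (145) and Hoxb7 (140.1) were above the reference by less, and Hoxb6 (100.2) and Hoxb5 (84.0) were not above it. Hoxd3 was the Hoxd gene above it, at 177, 163 and 169, and Hoxd12 straddled it at a mean of 124. The other Hoxd genes (Hoxd1, Hoxd4, Hoxd8, Hoxd9, Hoxd10, Hoxd11 and Hoxd13) had means from 70.4 to 101. Hoxc genes had means from 45.5 for Hoxc13 to 109.9 for Hoxc6, with Hoxc4, Hoxc5, Hoxc8, Hoxc9, Hoxc10, Hoxc11 and Hoxc12 between them.

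**Figure D3:**
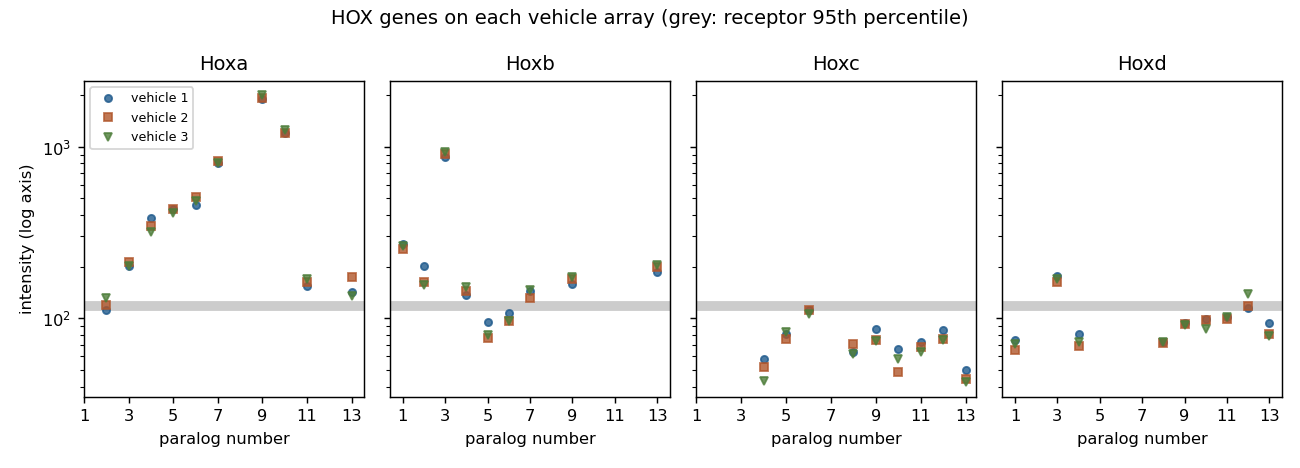
Intensity (log axis) of each measured HOX gene on vehicle arrays 1, 2 and 3 (symbols) against its paralog number, 1 panel per cluster; the grey band spans the receptor 95th percentile of the 3 arrays. Hoxa9, Hoxa10, Hoxa7 and Hoxb3 stand above 800 on each array and all 9 Hoxc genes lie at or below the band.

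The HOX clusters also hold microRNA genes, and Mir196b, which lies next to Hoxa9, read 214, 195 and 201, above the reference on each array. Mir196a-1 and Mir10a, which lie in the Hoxb cluster, had means of 35.4 and 15.5, below it. Both mature arms of miR-196b from RefSeq (GRCm38.p6, chromosome 6, minus strand) are shown, with the seed, bases 2 to 8, in capitals. The symbol alone does not say whether a probe set reads either arm or a longer transcript of the gene, which was not tested.

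miR-196b-5p, chr6:52230129-52230150: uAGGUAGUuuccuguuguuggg

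miR-196b-3p, chr6:52230094-52230115: uCGACAGCacgacacugccuuc

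The list of HOX cofactors and other targets of MLL fusions had a median of 764, but not all cofactors were bright. Of 20 measured, 17 (85.0%) were above the reference, beside 60.2% of all genes outside the receptors. Meis1, the cofactor that speeds leukemia with Hoxa9, read 1067, 1051 and 1111, and Pbx3, a further homeodomain partner, 719.6, 724 and 759. Cdk6, a G1 kinase, read 3324, 3099 and 3349, Lmo2, an adaptor of early blood factors, 2738, 2743 and 2919, and Cdkn2c, an inhibitor of Cdk4 and Cdk6, 1869, 1968 and 2139. Zeb2, Igf2bp3, Jmjd1c and Mef2c had means of 1512, 1440.0, 1373 and 967. Zfp521 was below the reference at 54.2, 43.3 and 50.3, and Eya1 and Meis3 straddled it at 106 and 109. The cofactors Meis1 and Pbx3 were thus bright together with Hoxa9, while Meis3 was not. Of the other MEIS and PBX genes measured, Pbx2 had a mean of 668. Pbx4 (171) and Meis2 (138) were above the reference but below the median of 179 of all genes outside the receptors.

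All 21 genes of the MLL, AF10 and DOT1L complexes were above the reference, with a median of 968, beside 60.2% of all genes outside the receptors. Kmt2a read 623, 643 and 607 and Mllt10 1307, 1283 and 1284. Whether these probe sets lie in the parts kept in the fusion is not known here, so neither value checks the fusion. Dot1l read 808, 817 and 832. Ash2l, a core subunit of MLL complexes, had a mean of 1996 ± 31.9, Aff1, a scaffold of the super elongation complex, of 1840.2 ± 42.2, and Men1, the menin that ties MLL to chromatin, of 681 ± 48.2. For Aff1 the average of 2 probe sets was 1201. Mllt6 was the dimmest of the 21, at 182, 164 and 161.

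Among 54 measured transcription factors of blood cell fate, 41 (75.9%) were above the reference and the median was 320. Of all genes outside the receptors, 60.2% were above it. The ETS factors Spi1 (PU.1), the master regulator of myeloid cells, and Fli1 read 2698, 2572 and 2714, and 2177, 2095 and 2176. Runx1 had a mean of 1053 ± 30.6 and its partner Cbfb of 1860.1 ± 55.5. The C/EBP factors Cebpb and Cebpd had means of 422 and 332, beside Cebpa (577) and Cebpe (1071) above. Spib, an ETS factor of B and plasmacytoid cells, read 53.1, 64.7 and 59.8, and Id3, an inhibitor of E proteins, 74.3, 62.7 and 60.9, both below the reference. Erg and Ikzf2 straddled it with means of 121 and 128. The brightest factors were those of myeloid and general blood fate. Gata1, Pax5 and Ebf1, of the erythroid and B cell lineages, read at most 143 on any array, but were picked from the list. Its members Lyl1, Ikzf1, Tcf3, Nfe2 and Runx3, not confined to myeloid cells, had means of 1502, 1421, 1092, 1061 and 934.

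Of 33 measured cytokine and growth factor receptors, 25 (75.8%) were above the reference, beside 60.2% of all genes outside the receptors, with a median of 551. IL-3 is bound by Il3ra together with Csf2rb or, in mice, Csf2rb2. Il3ra read 417, 433 and 413, Csf2rb 2635, 2630.1 and 2556 and Csf2rb2 1272, 1364 and 1329. The latter 2 genes are close copies, so their probe sets may share signal. Csf2ra, the GM-CSF receptor chain, had a mean of 2897 ± 48.0 and Csf3r, the G-CSF receptor, of 854 ± 9.57. Ifngr1 and Ifnar2, chains of the interferon receptors, were at 3079 ± 12.2 and 2490.0 ± 50.3, and Il10rb at 1618 ± 24.1. Il18r1 and Il5ra were the dimmest, with means of 36.8 and 39.1, and Il7r, the receptor of lymphoid progenitors, straddled the reference at 138, 110.3 and 112, as did Il6st at a mean of 117.

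All 21 genes of IL-3 signalling and its targets were above the reference, with a median of 853, beside 60.2% of all genes outside the receptors. Jak2, the kinase bound to Csf2rb, read 834, 928 and 919, and the transcription factors it activates, Stat5a and Stat5b, had means of 853 ± 20.7 and 869 ± 53.4. The targets Myc and Pim1, a transcription factor of growth and a survival kinase, read 2424, 2334 and 2385, and 1691, 1756 and 1664. The D-type cyclins Ccnd3 and Ccnd2 had means of 2053 ± 61.4 and 1341 ± 9.34. The feedback inhibitors of the list had means of 659.7 for Socs2 (531 with its probe sets averaged), 384 for Cish, 192 for Socs1 and 161 for Socs3. Inpp5d (SHIP1), a phosphatase that limits this signal, was bright at 2083.

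Cell cycle genes were bright throughout. All 34 measured were above the reference, also with keratins and defensins as reference, the median was 1716 and 22 lay in the brightest 10% of genes. Over all genes outside the receptors the shares were 60.2% and, with keratins and defensins, 39.9%. For DNA replication, Pcna, the polymerase clamp, read 3820.1, 3944 and 3995, the helicase subunit Mcm5 2677, 2784 and 2632 and the ribonucleotide reductase subunit Rrm1 2593, 2731 and 2763. For mitosis, Ccnb2 read 2879.9, 2815 and 2808 and Ccna2 2619, 2592 and 2715, and Mki67, the proliferation antigen, had a mean of 2127 ± 62.0. The dimmest were Gins2 at 651, 645 and 640.2 and Cenpf at 391, 395 and 413, still far above the reference.

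The Pcna promoter (GRCm38.p6) is shown because CCAAT, the letters of the NF-Y site, occurs on either strand in 21 of 27 matched promoters of this list, against 38.1% of all matched promoters, and GGGCGG, the Sp1 site, in 22 of 27, against 54.2%. Capitals mark ATTGG, the reverse complement of CCAAT, which begins 87 bases before the start, and GGGCGG, which begins 203 and 116 bases before it.

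Pcna, chr2:132253131-132253430, minus strand: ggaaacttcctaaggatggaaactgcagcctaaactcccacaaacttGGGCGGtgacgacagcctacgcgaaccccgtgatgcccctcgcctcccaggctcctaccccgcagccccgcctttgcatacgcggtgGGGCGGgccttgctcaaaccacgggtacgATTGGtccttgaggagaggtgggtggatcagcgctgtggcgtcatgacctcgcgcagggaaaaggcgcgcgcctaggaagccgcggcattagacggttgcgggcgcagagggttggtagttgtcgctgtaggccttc

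Inhibitors of the cycle and p53 targets were also present, with 14 of 17 (82.4%) above the reference and a median of 482. The share over all genes outside the receptors was 60.2%. Ccng1 and Mdm2, both targets of p53, read 3560.4, 3539 and 3676, and 1713, 1648 and 1716. Gadd45b and Sesn2 had means of 1167 ± 52.1 and 1014 ± 34.7. The Ink4a-Arf gene Cdkn2a straddled the reference at 122, 115 and 123, its neighbour Cdkn2b was just above it at 151, 125 and 132, and Cdkn1c straddled it at a mean of 117. Eda2r was at 28.0, 35.5 and 31.0, below it. Cdkn1a, Trp53 and Bax were not analysed here.

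Of 33 surface and adhesion genes, 30 (90.9%) were above the reference, with a median of 1334, beside 60.2% of all genes outside the receptors. The tetraspanins Cd53 and Cd81 read 4075, 4041 and 4128, and 2881, 2892 and 2870.2. Cd47, the signal against being engulfed, read 3798, 3614 and 3739, with 2899 where its probe sets were averaged, and Cd33, a sialic acid-binding lectin of myeloid cells, 3357, 3367 and 3347. Ptprc (CD45), carried by all nucleated blood cells, had a mean of 1725 ± 59.3 and the integrin chain Itgb2 of 2534 ± 20.6. The chemokine receptor Ccr1 and the gut-homing integrin chain Itgb7 were below the reference with means of 63.1 and 77.2. Ptprc, Spi1, Ctsg, Elane, Prtn3 and Mpo, genes of blood or myeloid cells, stood above the reference on each array. So did 60.2% of all genes outside the receptors, and the label of a leukemia was not tested.

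Of 29 immediate early and stress genes, 25 (86.2%) were above the reference, with a median of 404. The share over all genes outside the receptors was 60.2%. Among the brighter members were Asns, asparagine synthetase, at 4053, 4043 and 4151, Hspa5, the chaperone of the endoplasmic reticulum, at 3944, 4155 and 4062, and Atf4, the factor that induces Asns, at 2247, 2258 and 2271. Chac1, which breaks down glutathione, had a mean of 1615 ± 23.5, and the cytosolic chaperone Hsp90aa1 of 3879 ± 139. Ddit3, a factor of the unfolded protein response, had a mean of 404. Fos read 119, 106 and 105 and Egr1 95.9, 98.5 and 93.8, below the reference on each array, and Atf3 and Ier5 straddled it with means of 114 and 109.9, while other immediate early genes were above it, with means of 653 for Zfp36, 548 for Ier3, 478 for Jund, 429.9 for Jun, 395 for Fosl2 and 357 for Dusp1.

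Of 22 measured interferon response genes, 18 (81.8%) were above the reference, with a median of 368. The share over all genes outside the receptors was 60.2%. Ddx58, which codes for the RNA sensor RIG-I, read 1016, 1032 and 1095, Irf9, the DNA-binding part of the interferon-activated complex, 743, 801 and 761, and the GTPases Gbp3 and Irgm1 had means of 750.3 ± 25.7 and 624 ± 5.45. Mx1 and Mx2, of a family of antiviral GTPases, are both transcribed pseudogenes in the RefSeq annotation used. They were below the reference at 70.0, 72.4 and 65.8, and 32.2, 56.9 and 27.2. Mx2 differed between arrays by more than any other member of the list.

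Genes that mark the sex chromosomes were mostly dim. Xist, the RNA that silences an X chromosome, read 110.4, 110.5 and 117, above the reference on array 3 alone. The Y-linked genes Kdm5d, Eif2s3y, Uty, Usp9y, Zfy1 and Zfy2 had means between 17.5 and 54.4, below it. Sry, the testis-determining gene, was above it at 163, 141 and 171. The labels give no sex for these cells, and which sex chromosomes they carry was not tested.

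Whole families of housekeeping genes were near-uniformly bright. Of 61 cytosolic ribosomal protein genes 56 were above the reference (median 2844), of 39 proteasome subunits 37 (1313), of 77 respiratory chain subunits 74 (1309), and all 77 mitochondrial ribosomal proteins (655). Replication-dependent histones had 22 of 27 above it (1253). Histone genes are near-identical in sequence, so the values of single ones are uncertain. Small nucleolar RNAs had 37 of 51 above the reference, with a median of 243, and microRNA genes 68 of 296, with a median of 47.5. With keratins and defensins as reference these counts were 21 and 12. The share over all genes outside the receptors was 60.2% with the receptor reference and 39.9% with keratins and defensins. By gene type, 58.8% of protein-coding genes, 32.4% of long noncoding RNA genes and 22.9% of microRNA genes were above the reference. Keratins and their associated proteins had 28 of 88 above it, and beta defensins 3 of 39.

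Promoter sequence varied with brightness across the genes. Of 17379 protein-coding genes outside the receptors, 13993 were matched to a RefSeq promoter of 300 bases and divided by mean intensity into 5 bins of 20% each. The ratio of observed to expected CpG pairs, an index of CpG islands, was 0.376 in the dimmest bin and 0.781 in the brightest, and the GC content was 51.8% and 61.5%. GGGCGG occurred on either strand in 29.5%, 45.1%, 61.2%, 67.7% and 67.5% of promoters from the dimmest to the brightest bin. CCGGAAG, a form of the ETS site, occurred in 3.82%, 5.65%, 13.3%, 22.8% and 22.5%. Both motifs contain C and G, and their part beyond GC content was not tested.

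Other motifs behaved otherwise. TATAAA occurred in 18.7% of the promoters of the dimmest bin and 6.68% of the brightest. CCAAT occurred in 37.8% of the dimmest bin and 39.3% of the brightest, and GAGGAAG, which shares the letters GGAAG with CCGGAAG, in 12.3% and 14.9%. TTGCNNAA occurred in 13.1% and 8.93% of the dimmest and brightest bin, GCGCATG, the NRF1 site, in 2.57% and 9.22%, and ATGGCGG, the YY1 site, in 1.82% and 10.8%. Histone promoters differed from this pattern, with TATAAA in 15 of 23 and CCAAT in 19 of 23. These shares describe the promoters of genes on these arrays and carry no test.

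**Figure D4:**
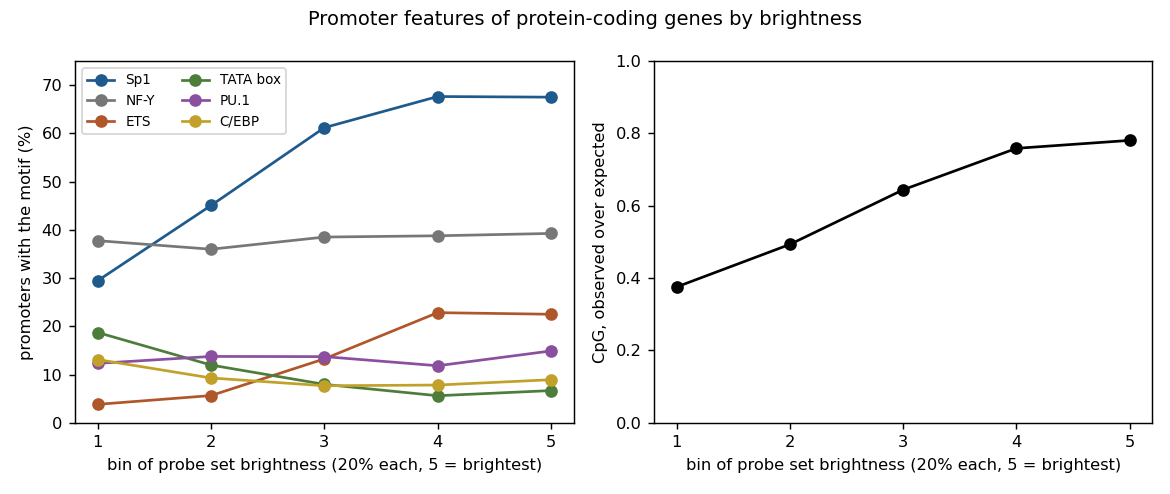
Left, the percentage of promoters that hold each of 6 motifs on either strand, and right, the ratio of observed to expected CpG pairs, for 13993 protein-coding genes in 5 bins of 20% by mean intensity over the vehicle arrays (5 is the brightest). The Sp1 line runs from 29.5% to 67.5% and the ETS line from 3.82% to 22.5%, the TATA box line falls from 18.7% to 6.68%, and the NF-Y and PU.1 lines stay within a few percentage points.

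The 3 arrays were close to each other. Pearson's r of log2 intensity across the 19938 genes was 0.9963 for arrays 1 and 2, 0.9958 for arrays 1 and 3 and 0.9966 for arrays 2 and 3, and Spearman's rho lay between 0.995 and 0.996. These are correlations across genes of the same arrays, which are not independent replicates. The SD of log2 intensity over the 3 arrays had a median of 0.0718 over all genes and of 0.0516 over the 11348 genes above the reference. In 5 bins of 20% by brightness its median was 0.129, 0.104, 0.0849, 0.0544 and 0.0351 from the dimmest to the brightest, which corresponds to 9.35% of the level in the dimmest bin and 2.47% in the brightest. Values below 16 had been raised to 16 before logarithms were taken, so the SD of the dimmest genes is held down.

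Between any pair of arrays 9 to 17 genes differed by more than 2-fold, and among genes above the reference 0 to 2. Array 1 lay farthest from the middle array in 4500 (39.7%) of the genes above the reference, array 2 in 3572 (31.5%) and array 3 in 3276 (28.9%). Among the 113 of these genes with the largest SD, array 1 was the farthest in 72 (63.7%), and it was the highest array in 68 of the 72. Tcf15 at 517, 376 and 330.4, Tmprss7 at 181, 123 and 118 and Hic2 at 262, 179 and 174 were of this kind. Arhgef40, a guanine nucleotide exchange factor, was lowest on array 3 at 197, 179 and 121. Acss2, an acetate-activating enzyme, was highest on array 2 at 229.8, 366 and 249. Among noncoding genes, Malat1, a nuclear long RNA, read 781, 1161 and 899, Scarna13 495, 622 and 742 and Mir695 266, 208 and 169.

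Map2k3 and Nsmce2 stood apart from all other genes above the reference. Map2k3, the kinase that activates p38, read 644, 3074 and 635, and Nsmce2, a SUMO ligase of the Smc5/6 complex, 892, 3769 and 830.3. On array 2 they were thus 4.81 and 4.38 times the mean of the other arrays, with an SD of log2 of 1.31 and 1.23, and they were the only genes above the reference on which 1 array differed more than 2-fold from both others. Without array 2 the means were 640 and 861 in place of 1451 and 1830. In the 3 inhibitor arrays Map2k3 read 669, 752 and 713, and Nsmce2 922, 896 and 932, close to vehicle arrays 1 and 3.

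Genes beside them did not share the difference. Natd1 and Kcnj12 lie on either side of Map2k3 in the RefSeq gene order and read 463, 459 and 455, and 139, 139.7 and 139. The antisense gene Map2k3os, below the reference on each array, had an array 2 at 1.04 times the mean of arrays 1 and 3. Tnfrsf13b, further on, was at 1.07 times. Sqle and Washc5 on one side of Nsmce2 were at 0.985 and 1.03 times, and Trib1 on the other side at 1.05 times. Map2k3 and Nsmce2 have 1 probe set each, so no second probe set could be compared.

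**Figure D5:**
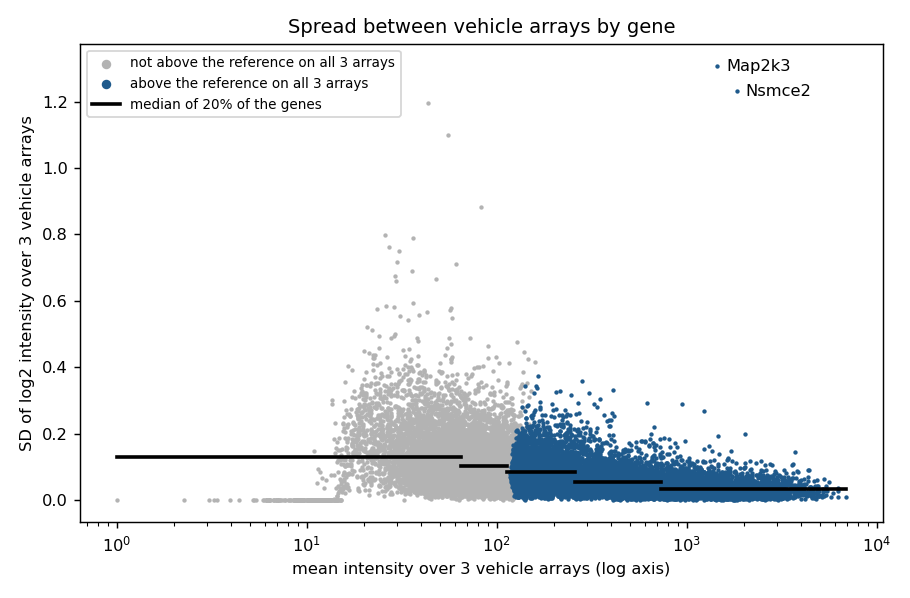
SD of log2 intensity over the 3 vehicle arrays against mean intensity (log axis), 1 point per gene; blue points were above the receptor reference on all 3 arrays, grey points were not, and black lines give the median SD in each of 5 bins of 20% of the genes. The median falls from 0.129 in the dimmest bin to 0.0351 in the brightest, and Map2k3 and Nsmce2 lie apart from all other blue points at 1.31 and 1.23.

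The spread of a gene was partly shared with arrays that the description did not use. Across all 19938 genes the SD of the vehicle arrays and that of the inhibitor arrays had a Spearman's rho of 0.40, over the genes above the reference 0.34, and within the 5 bins of brightness between 0.11 and 0.22. These are descriptions across genes, which share the arrays and their brightness, and no p-value is given. The median SD was 0.0718 in the vehicle arrays and 0.0887 in the inhibitor arrays.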

How the data were processed

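RNA of the 3 vehicle and 3 inhibitor samples had been measured on Affymetrix whole-transcript arrays. The deposited values table holds 1 intensity per probe set and array on a linear scale, and the submitters' processing notes name Affymetrix Expression Console as the tool behind it. Neither a version nor the summarization and normalization steps were given, and none was added. Of 35512 probe sets, 21789 had 1 gene symbol in the platform annotation (21698 found in RefSeq through the gene identifier), 1621 had several and 12102 had none listed. The last 2 kinds were left out, and listed genes without a probe set were not analysed here. Each gene took its probe set of highest vehicle mean. Intensities were raised to a floor of 16 (1.308% of values) before log2, and SDs are over 3 arrays.

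With 1 group no test was run. Genes were named as the 30 brightest, the 20 of largest SD above the reference, every HOX gene, Kmt2a, Mllt10 and, per list, the 5 brightest, the 2 dimmest, those straddling the reference and the 2 of largest SD; further genes of the lists were chosen after their values were seen. The members and the 23 lists were chosen with earlier results of these data known. Promoters and miRNAs came from RefSeq (GRCm38.p6), at the start listed first, and were searched on both strands. Alternatives in scaling, probe set choice, reference, floor and replicates were run, and the code was tested on simulated data. Computations used Python 3.11.15, numpy 2.4.6, pandas 2.3.3 and scipy 1.17.1.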

Additional observations from a re-analysis of the deposited data

How the results depend on the processing

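No paired analysis was possible because the values describe 1 group and come from no test. The count of genes above the reference stayed within 1.5 times of 11299 under every alternative but the keratin and defensin reference (7477), and the scaling alternatives leave it as it is by construction, since the reference was taken on each array. The 31 genes above it in the 7 other cell lists became 54 at the 90th percentile, 12 at the 99th and 5 with keratins and defensins. The median SD of log2, 0.0718, became 0.0821 with median centring, 0.0497 with a floor of 64 and 0.0516 over genes above the reference, and 0.0508 to 0.0604 with 1 array left out. The lowest correlation between arrays, 0.995763, became 0.995126 with a floor of 1 and 0.997091 with a floor of 64, and 0.995764 to 0.996602 with 1 array left out. Spearman's rho of the SDs, 0.401, became 0.341 over genes above the reference and 0.266 to 0.336 with 1 array left out. With any listed promoter start, an alternative chosen after seeing the data, GGGCGG was in 31.9% and 71.3% of the dimmest and brightest 20% of genes, TATAAA in 20.6% and 8.11%, and CCGGAAG in 24.6% of the brightest. Of the levels of 524 genes, 20 moved by more than their SD with probe sets averaged and 0 under the other scalings or probe set choice. Most of the 524 have a single probe set, so neither averaging nor another choice of probe set can move them. The 20 all have several probe sets, and their share of the 524 does not measure how stable levels are under averaging. Leaving out 1 of 3 arrays cannot move a mean by more than its SD, so no such count is given for that setting. Map2k3 and Nsmce2, whose SDs are large, went from 1451 and 1830 to 640 and 861 without array 2. Of 30 list counts, 1 moved with array 1 left out, and 6, 8 and 12 with the 90th percentile, the 99th and the keratin and defensin reference. Differences near the receptor reference are not resolved by 3 arrays.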

Other observations

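Probe sets that name no single gene also carried signal on the vehicle arrays. Of the 1621 probe sets with several gene symbols, 836 (51.6%) were above the receptor reference on all 3 arrays, and of the 12102 not listed in the platform annotation, 3741 (30.9%) were, against 56.9% of those with 1 symbol. The brightest of each kind had a mean intensity of 8012, 7538 and 6921. These probe sets have no single gene name here and entered no list.

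Of the microRNA genes, 2 known from blood cells were chosen after their values were seen. Mir142, a microRNA of all blood lineages, read 126, 153 and 157 on arrays 1, 2 and 3, above the reference on each. Mir155, a microRNA of activated immune cells, read 66.5, 69.4 and 65.9, below the reference on each. Whether these values stand for the mature microRNAs was not tested.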
